A study of Homo sapiens with 12 samples.

Results

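Cells that respond to TGFβ1 also make the proteins that turn the response down, and 10 genes of this negative feedback were followed here in triple negative breast cancer (TNBC) cells with and without a phosphorylation site of the glucocorticoid receptor (GR). The genes were SMAD7, SMAD6, SMURF1, SMURF2, PMEPA1, LDLRAD4, BAMBI, SKI, SKIL and TGIF1, chosen by symbol, and all 10 were found among the 19907 gene symbols of the deposited table. The RNA came from MDA-MB-231, an established human TNBC line. The wt-GR line was a clone recovered from the CRISPR-treated population with an unedited receptor, and the S134A-GR line was clone #1, in which both alleles carried alanine in place of Ser134. Each line was therefore a single clone. All cells were starved for 18 h in medium with 1% DCC (serum stripped with charcoal) before vehicle (Veh) or 10 ng/mL of TGFβ1 was added for 6 h. The 4 groups were wt-GR with Veh, wt-GR with TGFβ1, S134A-GR with Veh and S134A-GR with TGFβ1, with 3 libraries in each and 12 in all.

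TGFβ1 binds a pair of serine/threonine kinase receptors, the type I receptor phosphorylates SMAD2 and SMAD3, and these enter the nucleus with SMAD4 to regulate genes. The pathway is held back at each level. Inhibitory SMADs occupy the receptor and bring ubiquitin ligases of the SMURF family to it, membrane proteins such as PMEPA1 bind SMAD2 and SMAD3 before the receptor can, and corepressors such as SKI and SKIL silence SMAD complexes on DNA. Several of these inhibitors are themselves induced by TGFβ1, which makes them a feedback loop. In breast cancer cells the pathway is best known for its part in migration and invasion.

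Levels are given as normalized counts, the reads assigned to a gene in a library divided by that library's size factor. The reads behind them were recovered and their total per library, in units of 1e6 reads, lay between 56.4 (wt-GR, Veh, replicate 1) and 129.8 (wt-GR, TGFβ1, replicate 2). Of the 10 genes, LDLRAD4 had the lowest level and still lay well above the level of 3 reads, which was at most 4.89 normalized counts in any library. This floor covers counting error only. The cells carried the markers of the labelled line. VIM ranged from 419832 to 533198 normalized counts over the 12 libraries, CD44 from 41033 to 62473 and AXL from 110062 to 124924, while ESR1 did not exceed 7.32 and CDH1 did not exceed 12.5. EGFR, CAV1 and NR3C1, the gene of GR, were present in all libraries, and PGR was not among the gene symbols of the deposited table. Of the other genes listed as low or absent in this line, ERBB2 was measured at 7229 to 10589, GATA3 at 688 to 1183 and EPCAM at 318 to 1093, so these 3 were not absent. Several of these markers differed between the lines. NR3C1 was lower in the S134A-GR line, at −0.41 (log2) under Veh and −0.31 under TGFβ1 (adjusted p = 1.2e-04 and 0.00134 by limma). CAV1 was lower, at −0.70 and −0.61 (adjusted p = 1.6e-09 and 6.9e-09), and EPCAM was lower, at −1.44 and −1.58 (adjusted p = 5.7e-08 and 2.6e-08). ERBB2 was higher, at 0.24 and 0.24 (adjusted p = 2.8e-04 and 3.1e-04), and GATA3 was higher, at 0.43 and 0.30 (adjusted p = 4.0e-04 and 0.00591).

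Some markers of other cell types moved with the groups. Of 3 endothelial markers (PECAM1, VWF and CDH5), all were detected, with PECAM1 the most abundant, and their summed level was 1941 ± 79.7 normalized counts (SD, n = 3) in the wt-GR line under Veh, 1485 ± 23.3 under TGFβ1, and 1524 ± 67.7 and 1045 ± 102 in the S134A-GR line. Of the leukocyte markers, CD3E was not among the gene symbols of the deposited table, and PTPRC did not exceed 9.80 in any library. CD68 made up nearly all of the summed level. That sum was 28027 ± 177 and 27049.8 ± 654 in wt-GR cells and 41444 ± 1239 and 40978 ± 1637 in S134A-GR cells. The luminal markers KRT8, KRT18 and FOXA1 summed to 99201 ± 3969.8, 109988 ± 3985, 96866 ± 3073 and 92696 ± 5643 in the same order of groups, with KRT8 the most abundant. Within these sums single genes went different ways. CDH5 was lower in the S134A-GR line under Veh, at −3.28 (adjusted p = 2.3e-07 by limma), and under TGFβ1 its mean went from 187 to 215 in the wt-GR line and from 19.0 to 28.7 in the S134A-GR line (not called in either), while the endothelial sum was smaller. FOXA1 was higher in the S134A-GR line under Veh, at 0.34 (adjusted p = 0.0231), where KRT18 was lower, at −0.21 (adjusted p = 0.00426). The part of these markers in the results below was not tested.

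The first question was which of the feedback genes responded to TGFβ1 within 6 h, and it was asked in each line. Differences were tested by limma after 1 was added to the normalized counts and log2 taken, and a gene was called when its p-value, adjusted over all 18579 genes tested, was under 0.05 at any fold change. In the wt-GR line 7 of the 10 genes were higher under TGFβ1, against 11.2% of all genes tested, and 0 were lower, against 9.82%. In the S134A-GR line the numbers were 7 higher, against 10.0% of all genes, and 0 lower, against 8.69%. The same 7 genes were called in both lines, namely SMAD7, SMURF1, SMURF2, PMEPA1, LDLRAD4, SKI and SKIL. At an unadjusted p under 0.05, and by edgeR and DESeq2 on the recovered reads, 0 of the 10 were lower in either line. The median log2 fold change of the 10 genes was 0.48 in the wt-GR line and 0.52 in the S134A-GR line, where that of all genes tested was −0.0046 and −0.01. The 10 genes were chosen with earlier results of these data known, so these counts and medians are a description and no test of the group. These are bulk measurements, so fewer cells with a transcript and less of it per cell cannot be told apart. The labels do not say that the replicates were separate cultures, and p-values measure only the spread between these samples.

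**Figure D1:**
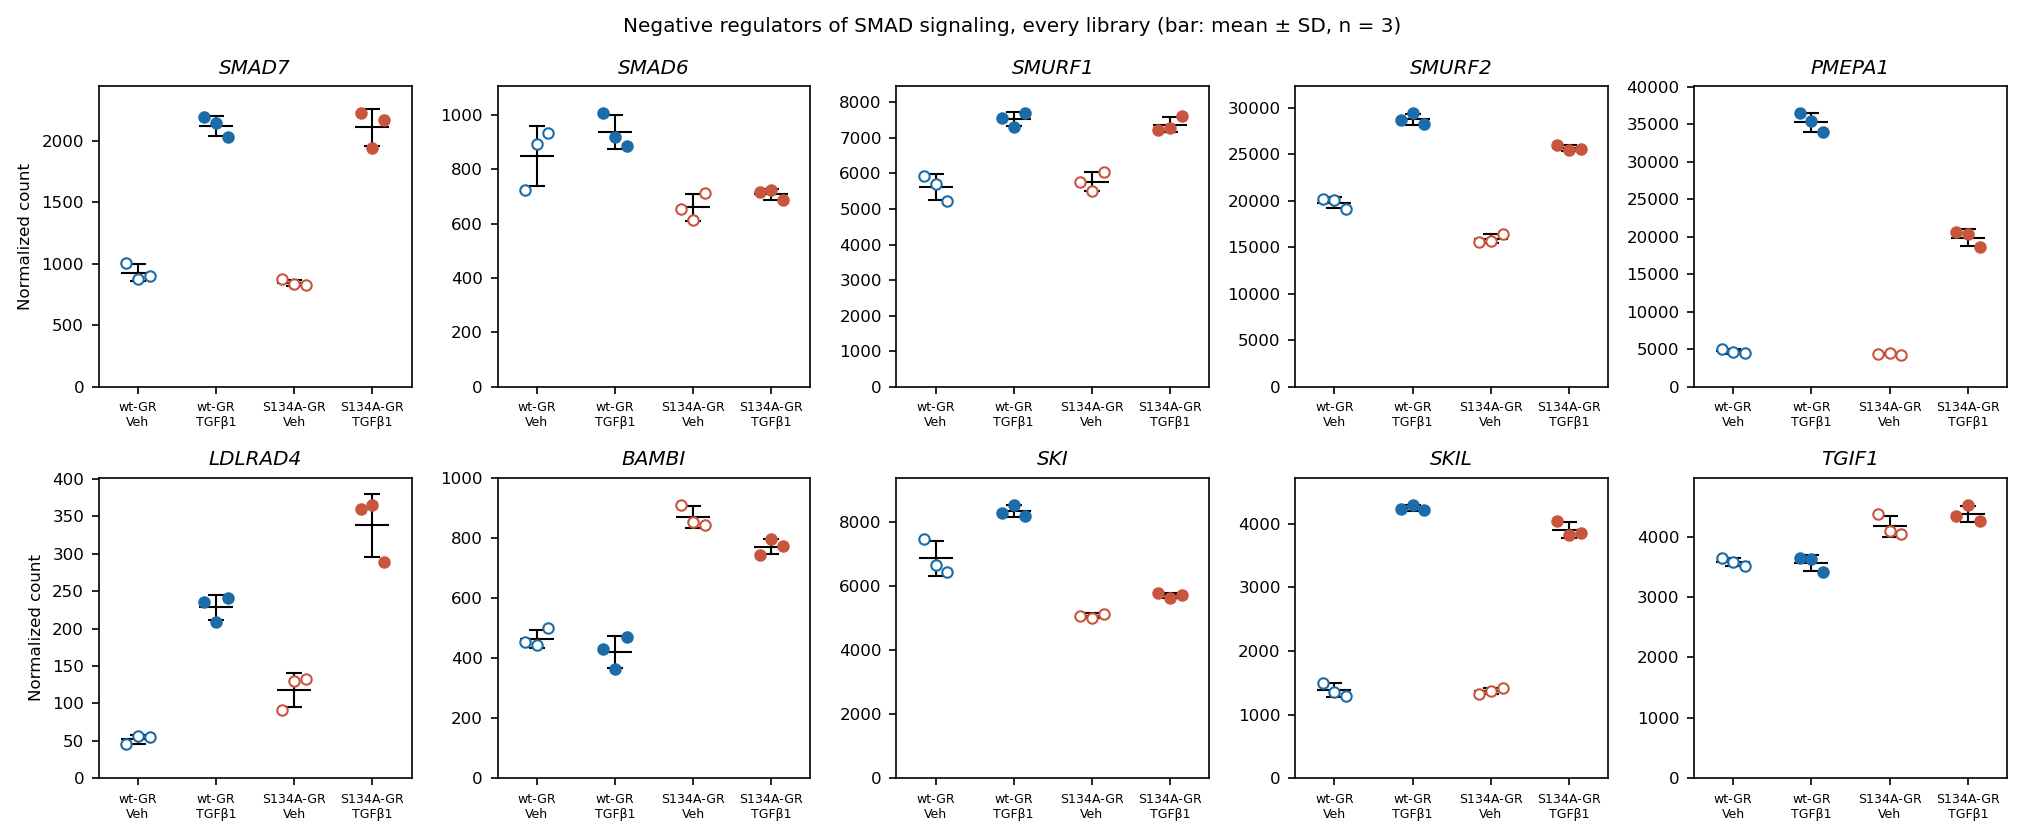
Normalized count of each of the 10 genes (y axis, from 0) in the 12 libraries by group (x axis), with open points for Veh, filled points for TGFβ1 and a bar for the mean ± SD (n = 3). For SMAD7, SMURF1, SMURF2, PMEPA1, LDLRAD4, SKI and SKIL every TGFβ1 library of a line lies above every Veh library of that line.

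SMAD7, the inhibitory SMAD of the TGFβ and activin arm, blocks the activated type I receptor. It had 1009, 875 and 902 normalized counts in the 3 wt-GR libraries under Veh and 2192, 2143 and 2029 under TGFβ1. The S134A-GR libraries had 874, 833 and 829 under Veh and 2224, 1939 and 2169 under TGFβ1. The treated libraries of both lines stood clear of the untreated ones, and the treated groups overlapped each other. The log2 fold change was 1.19 in the wt-GR line (standard error 0.0674, adjusted p = 1.5e-08 by limma) and 1.32 in the S134A-GR line (adjusted p = 6.5e-09). The difference between these responses was 0.12, with a 95% confidence interval of −0.08 to 0.33.

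SMAD6, the inhibitory SMAD that acts mainly on the BMP arm, differed between the lines and was not called for the treatment. Its levels were 725, 892 and 935 normalized counts in the wt-GR line under Veh and 1006, 920.5 and 886 under TGFβ1. They were 655, 613 and 712 in the S134A-GR line under Veh and 716, 723 and 686 under TGFβ1. The treated and untreated libraries overlapped within each line, and all 6 S134A-GR libraries lay below all 6 wt-GR libraries. The log2 fold change of SMAD6 was 0.15 (95% confidence interval −0.05 to 0.35, adjusted p = 0.315 by limma) in the wt-GR line and 0.10 (−0.10 to 0.30) in the S134A-GR line.

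SMAD7 lies at chr18:48919853-48950965 on the minus strand and SMAD6 at chr15:66702236-66782849 on the plus strand of GRCh38. The 250 bases before their start sites are shown because these genes encode the same kind of inhibitor and SMAD7 was called under TGFβ1 where SMAD6 was not. The sequences are from RefSeq (GRCh38.p14), which gave a window for 9 of the 10 genes, all but SKI. They were searched on both strands for the SMAD motifs GTCTAGAC, CAGAC, whose reverse complement is GTCTG, and GGCGCC and for the AP-1 motif TGANTCA. Capitals mark the matches. The SMAD7 window is chr18:48950966-48951215, minus strand, and the SMAD6 window chr15:66701986-66702235, plus strand.
SMAD7: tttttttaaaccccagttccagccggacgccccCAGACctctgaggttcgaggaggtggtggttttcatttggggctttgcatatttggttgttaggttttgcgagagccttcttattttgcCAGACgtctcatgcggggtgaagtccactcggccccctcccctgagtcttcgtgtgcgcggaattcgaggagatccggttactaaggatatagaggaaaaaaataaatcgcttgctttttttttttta
SMAD6: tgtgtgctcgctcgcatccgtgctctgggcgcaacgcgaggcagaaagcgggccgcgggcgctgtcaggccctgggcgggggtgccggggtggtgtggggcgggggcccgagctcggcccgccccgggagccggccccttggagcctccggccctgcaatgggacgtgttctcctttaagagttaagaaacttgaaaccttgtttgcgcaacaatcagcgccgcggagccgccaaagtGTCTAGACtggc
CAGAC stood at positions −217 and −128 of SMAD7, counted back from the start, and was present in 38.0% of all 35116 promoter windows of this length. GTCTAGAC stood at position −12 of SMAD6 and was present in 0.182% of the windows. Neither window overlapped an annotated exon. A match is a description of the letters only, and the start sites used by these cells were not measured.

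The SMURF genes encode ubiquitin ligases of the HECT class that are brought to the receptor by inhibitory SMADs. SMURF1 had 5931, 5709 and 5223 normalized counts in the wt-GR line under Veh and 7564, 7310.5 and 7689 under TGFβ1, and 5747, 5514 and 6049 and then 7219.6, 7281 and 7609 in the S134A-GR line. The groups separated by treatment in both lines and overlapped between the lines. SMURF1 was higher under TGFβ1 by 0.42 on the log2 scale (adjusted p = 2.2e-05 by limma) in the wt-GR line and 0.35 (adjusted p = 1.4e-04) in the S134A-GR line.

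SMURF2 separated by both treatment and line. It had 20149, 20119.6 and 19102 normalized counts in the wt-GR line under Veh and 28658, 29388 and 28196 under TGFβ1. In the S134A-GR line it had 15584, 15642 and 16463 under Veh and 26003, 25416 and 25567 under TGFβ1. No groups overlapped, and the order from low to high was S134A-GR with Veh, wt-GR with Veh, S134A-GR with TGFβ1 and wt-GR with TGFβ1. The response was 0.54 (standard error 0.0339, adjusted p = 4.3e-08 by limma) in the wt-GR line and 0.69 (adjusted p = 4.2e-09) in the S134A-GR line. Their difference of 0.15 (95% confidence interval 0.05 to 0.26) had a p of 0.00682 before adjustment and an adjusted p of 0.317 by limma, and was not called.

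Exons of both SMURF genes overlap a gene on the opposite strand, SMURF1 with TRRAP over 735 bases (13.0% of its MANE transcript) and SMURF2 with CEP95 over 180 bases (2.89%). The strand setting of the counting is not given in the sources used here, so reads from these stretches cannot be told apart. TRRAP had log2 fold changes under TGFβ1 of −0.20 in the wt-GR line and 0.13 in the S134A-GR line (adjusted p = 0.423 and 0.642 by limma). Its wt-GR libraries under Veh lay far apart, at 13503, 9509 and 7477 normalized counts. CEP95 had log2 fold changes of −0.12 and −0.15 in the same order (adjusted p = 0.0738 and 0.0291 by limma), the opposite sign to SMURF2. LDLRAD4 likewise overlaps an antisense transcript over 226 bases (2.60%).

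PMEPA1 encodes a membrane protein that binds SMAD2 and SMAD3 and keeps them from the receptor. It had 5093, 4588 and 4487 normalized counts in the wt-GR line under Veh and 36441, 35409 and 33922 under TGFβ1. Its levels in the S134A-GR line were 4369.7, 4528 and 4204 under Veh and 20685, 20344 and 18576 under TGFβ1. Untreated libraries of the lines overlapped, every treated library was far above them, and all 3 treated S134A-GR libraries were below all 3 treated wt-GR libraries. The mean level rose 7.47-fold in the wt-GR line (log2 fold change 2.90, standard error 0.0535, adjusted p = 1.2e-13 by limma) and 4.55-fold in the S134A-GR line (log2 fold change 2.18, adjusted p = 4.5e-12). In normalized counts the mean gain was 30535 and 15501. None of the motifs stood in the 250 bases before the MANE start of PMEPA1, nor in those of SMURF2, LDLRAD4 and TGIF1, though windows at other annotated starts of PMEPA1, LDLRAD4 and TGIF1 held some.

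LDLRAD4, a relative of PMEPA1 that also binds SMAD2 and SMAD3, was the least abundant of the 10 genes. It had 45.6, 57.1 and 54.8 normalized counts in the wt-GR line under Veh and 236, 209 and 240.4 under TGFβ1. In the S134A-GR line it had 91.4, 129.8 and 133 under Veh and 359.5, 366 and 289 under TGFβ1. The groups did not overlap, and the S134A-GR line were the higher line under both treatments, unlike PMEPA1. On the log2 scale LDLRAD4 rose under TGFβ1 by 2.10 (standard error 0.168, adjusted p = 5.2e-07 by limma) in the wt-GR line and 1.52 (adjusted p = 1.6e-05) in the S134A-GR line, while the mean gain in normalized counts was 176 and 220.0. The difference between the responses was −0.58 (95% confidence interval −1.09 to −0.07; adjusted p = 0.474 by limma) and was not called.

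BAMBI encodes a pseudoreceptor that resembles a type I receptor but has no kinase domain. Its levels were 453, 443 and 500.2 normalized counts in the wt-GR line under Veh and 432, 365 and 469.5 under TGFβ1. They were 911, 854 and 845 and 746, 798 and 774 in the S134A-GR line. All 6 S134A-GR libraries were above all 6 wt-GR libraries, and the treatment groups overlapped in the wt-GR line but not in the S134A-GR line. The log2 fold change of BAMBI was −0.15 (95% confidence interval −0.34 to 0.05, adjusted p = 0.305 by limma) in the wt-GR line and −0.17 (−0.37 to 0.03, adjusted p = 0.233) in the S134A-GR line.

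SKI and SKIL (SnoN) are related corepressors that bind SMAD complexes and recruit histone deacetylases. SKIL had 1502, 1355 and 1291 normalized counts in the wt-GR line under Veh and 4228, 4299 and 4218 under TGFβ1, and 1325, 1367 and 1417 and then 4047, 3819 and 3856 in the S134A-GR line. Its untreated groups overlapped and its treated groups were about 3 times as high in both lines, with log2 fold changes of 1.62 (standard error 0.0543, adjusted p = 6.4e-11 by limma) and 1.51 (adjusted p = 1.7e-10). The window before the MANE start of SKIL holds GTCTG at position −107, in the 30 bases at chr3:170357596-170357625, and GGCGCC at position −190, in those at chr3:170357513-170357542, both on the plus strand and shown because SKIL rose with SMAD7 in both lines. All of this window lies in an exon of another SKIL transcript. GGCGCC was present in 16.4% of all windows.
SKIL, GTCTG: gacggcggcggcGTCTGcgggaagctgtgt
SKIL, GGCGCC: gcccgcgcgcgcGGCGCCgccgctggctcc
Of the windows at the MANE starts of the 9 genes, 4 held CAGAC or GTCTG (SMAD7, SMURF1, BAMBI and SKIL), 2 held GGCGCC (BAMBI and SKIL), 1 held GTCTAGAC, and 0 held TGANTCA, which 6.57% of all windows held. Genes that rose and genes that were not called were among those with a match and among those without.

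SKI also rose under TGFβ1, 1.21-fold in the wt-GR line and 1.13-fold in the S134A-GR line by the ratio of means. It had 7472, 6661 and 6442 normalized counts in the wt-GR line under Veh and 8277, 8524 and 8172 under TGFβ1. The S134A-GR libraries held 5071, 4987 and 5136 under Veh and 5779.6, 5627 and 5706 under TGFβ1. No groups overlapped, and both S134A-GR groups were below both wt-GR groups. On the log2 scale SKI rose under TGFβ1 by 0.28 (adjusted p = 6.0e-04 by limma) in the wt-GR line and 0.17 (adjusted p = 0.0203) in the S134A-GR line. The call in the S134A-GR line was lost when any of 4 S134A-GR libraries was left out (Veh replicate 1, adjusted p = 0.059; Veh replicate 2, 0.0718; TGFβ1 replicate 1, 0.0591; TGFβ1 replicate 3, 0.0502).

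TGIF1, a homeodomain protein that recruits corepressors to SMAD2, was not called for TGFβ1 in either line. It had 3645, 3573 and 3513 normalized counts in the wt-GR line under Veh and 3652, 3627 and 3409.8 under TGFβ1. The values of the S134A-GR line were 4373, 4091 and 4048 under Veh and 4339.7, 4526 and 4264 under TGFβ1. All 6 S134A-GR libraries were above all 6 wt-GR libraries, and treated and untreated libraries overlapped in each line. The 95% confidence interval of the log2 fold change under TGFβ1 was −0.10 to 0.09 in the wt-GR line and −0.02 to 0.16 in the S134A-GR line.

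**Figure D2:**
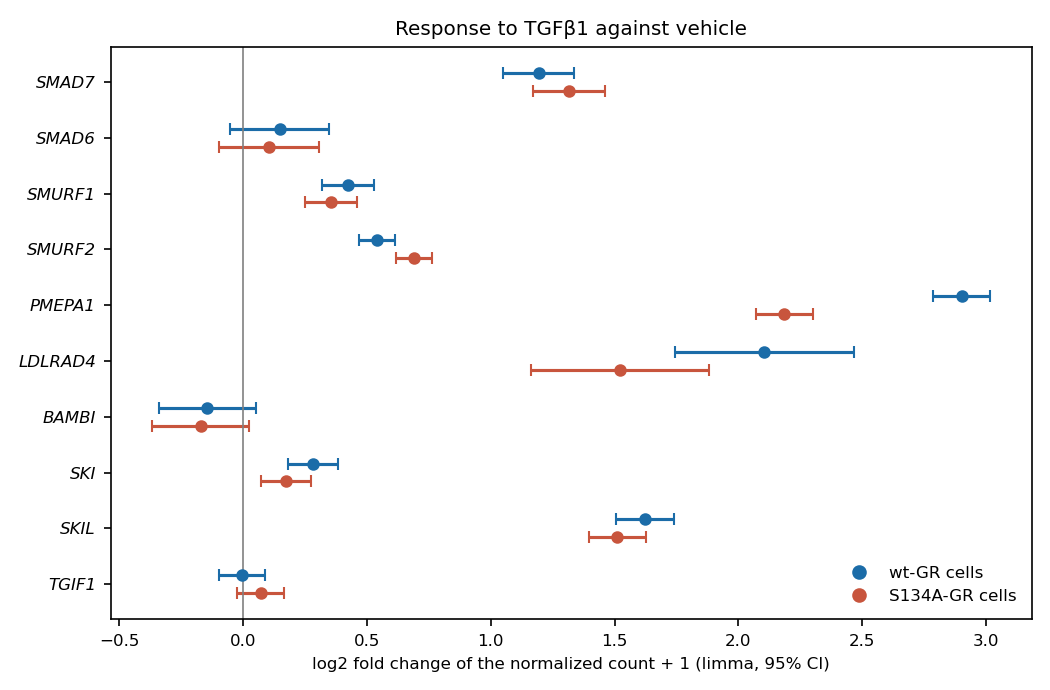
Response to TGFβ1 of each of the 10 genes, as the log2 fold change of TGFβ1 against Veh (x axis, limma) with its 95% confidence interval, in the wt-GR line (blue) and the S134A-GR line (red). The intervals of the lines lie apart for PMEPA1 (2.90 in wt-GR and 2.18 in the S134A-GR line) and just apart for SMURF2 (0.54 and 0.69), and overlap for the other genes.

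The next question was whether the response itself depended on the line. The difference of responses, S134A-GR minus wt-GR, was called for 1 of the 10 genes, PMEPA1, against 0.414% of all genes tested (77 of 18579 in either direction). For PMEPA1 it was −0.72 (standard error 0.0756, 95% confidence interval −0.88 to −0.55, adjusted p = 9.1e-04 by limma), and edgeR and DESeq2 called the same gene. At an unadjusted p under 0.05, limma gave 3 of the 10, against 1728 of all 18579 genes tested. The 3 were PMEPA1, LDLRAD4 and SMURF2. SKIL (−0.11, −0.28 to 0.05), SKI (−0.11, −0.25 to 0.03), SMURF1 (−0.07, −0.22 to 0.08) and SMAD7 had intervals that included 0, and these bound how far their responses could differ between the lines.

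The lines were then compared under each treatment. With 1 clone for each receptor, a difference between receptors and a difference between clones cannot be told apart. Under Veh 3 of the 10 genes were higher in the S134A-GR line, against 25.0% of all genes tested, and 3 were lower, against 26.5%. Under TGFβ1 3 were higher, against 23.1%, and 4 were lower, against 25.7%. These shares are near those of all genes and are no result about the feedback genes as a group. The median log2 fold change of the 10 genes was −0.06 under Veh and −0.08 under TGFβ1, and that of all genes tested 0.02 and 0.01. The comparisons under the 2 treatments use different libraries, and both share their libraries with the responses above.

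The genes called in both treatments kept their direction. SMAD6 was lower in the S134A-GR line, with log2 fold changes of −0.36 under Veh and −0.40 under TGFβ1 (adjusted p = 0.00491 and 0.00246 by limma). SKI was lower, at −0.43 and −0.55 (adjusted p = 3.0e-06 and 3.6e-07), and SMURF2 likewise, at −0.32 and −0.16 (adjusted p = 2.7e-06 and 0.00107). BAMBI was higher by 0.90 and 0.88 (adjusted p = 1.5e-06 and 2.2e-06), TGIF1 by 0.22 and 0.30 (adjusted p = 6.6e-04 and 5.8e-05). The genes that differed act at the receptor, on the SMADs and on DNA, and they differed in both directions.

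LDLRAD4 was higher in the S134A-GR line by 1.14 under Veh (adjusted p = 5.3e-05 by limma) and 0.56 under TGFβ1 (adjusted p = 0.0131). The call under TGFβ1 was lost without replicate 2 of treated wt-GR line (adjusted p = 0.0531) or of treated S134A-GR line (0.0533). PMEPA1 was called under TGFβ1 only, with a mean level in the S134A-GR line 0.564 times that in the wt-GR line, where under Veh the log2 fold change was −0.11 (95% confidence interval −0.23 to 0.00, adjusted p = 0.0985). The difference of responses above is the test of that contrast. Under Veh, PMEPA1 was called without replicate 3 of untreated wt-GR line (adjusted p = 0.041). SMAD7 and SMURF1 were called in neither treatment. SKIL was at −0.01 under Veh and −0.12 under TGFβ1 (adjusted p = 0.0814 by limma), the latter called by edgeR (adjusted p = 0.0388) and by DESeq2 (0.0385).

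**Figure D3:**
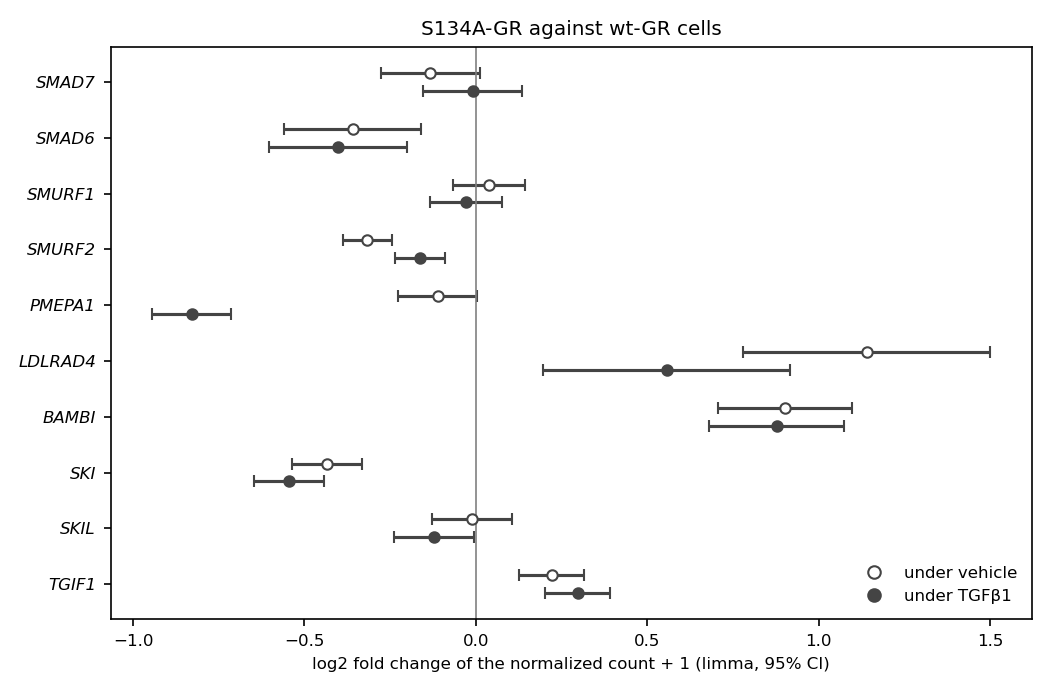
Difference between the lines for each of the 10 genes, as log2 of the fold between S134A-GR and wt-GR (x axis, limma) with its 95% confidence interval, under Veh (open points) and TGFβ1 (filled points). SMAD6, SMURF2 and SKI lie below 0 and LDLRAD4, BAMBI and TGIF1 above 0 under both treatments, and PMEPA1 moves from −0.11 under Veh to −0.83 under TGFβ1.

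Each gene was set beside the genes nearest to it on its chromosome, 50 tested genes in all, as many on each side (45 for TGIF1, near a chromosome end). BAMBI lies at chr10:28677510-28682932 and of its 50 neighbours 39 were higher in the S134A-GR line under Veh and 2 were lower, with a median log2 fold change of 0.36. BAMBI, at 0.90, lay above the upper quartile of its neighbours. SKIL lies at chr3:170357342-170396835, where 27 of 50 neighbours were lower in the S134A-GR line and 5 were higher (median −0.23), and SKIL itself, at −0.01, lay above their upper quartile. Under TGFβ1 SKIL, at −0.12, lay within the quartiles of its neighbours (median −0.14). For the other 8 genes the median of the neighbours under Veh was between −0.09 and 0.10. SMAD7, LDLRAD4 and TGIF1 all lie on chromosome 18, and of these LDLRAD4 and TGIF1 were higher in the S134A-GR line and SMAD7 was not called. The part of neighbouring genes in these differences was not tested.

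**Figure D4:**
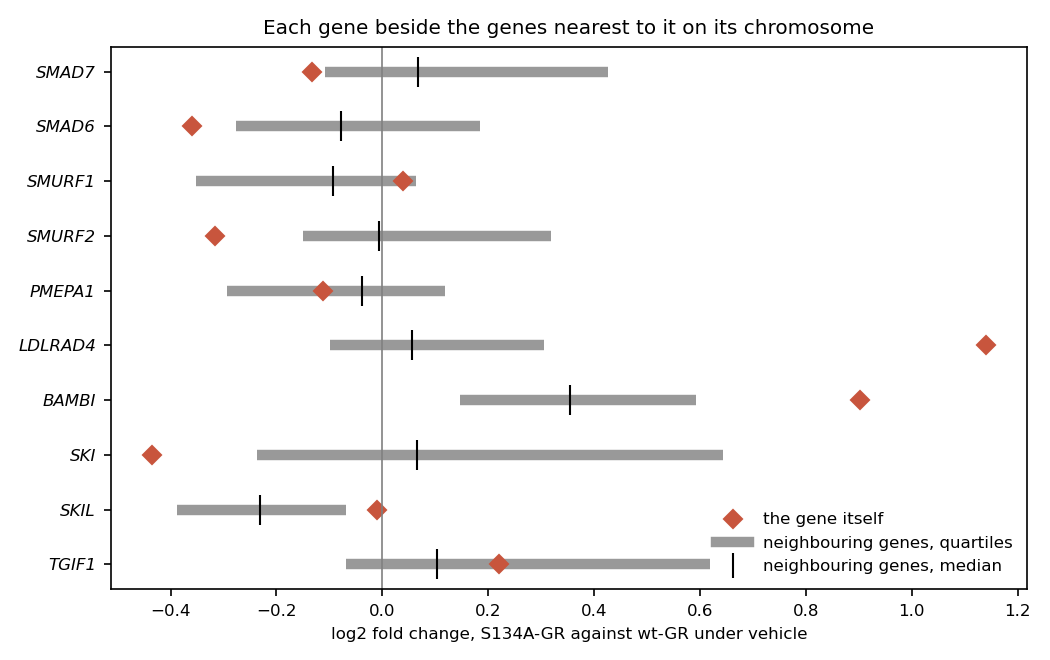
Difference between S134A-GR and wt-GR under Veh (x axis, log2) for each of the 10 genes (diamond) beside the median (tick) and quartiles (grey bar) of the tested genes nearest to it on its chromosome. The neighbours of BAMBI sit above 0 and those of SKIL below 0, and LDLRAD4 sits far to the right of its neighbours.

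To compare levels between genes, means were divided by the length of the MANE transcript in kilobases. In the wt-GR line under Veh, SMURF2 stood highest at 3171 ± 95.6 normalized counts per kilobase (SD, n = 3). SKI (1128 ± 89.2) and TGIF1 (1127 ± 20.9) came next and overlapped, followed by SMURF1 (992 ± 63.9) and PMEPA1 (953 ± 65.6), which also overlapped. SMAD7 (278 ± 21.1) and BAMBI (275 ± 18.1) overlapped, as did SMAD6 (222 ± 29.0) and SKIL (193 ± 15.2), and LDLRAD4 was last at 6.03 ± 0.695.

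Under TGFβ1 the order per kilobase changed at the top. In the wt-GR line PMEPA1 reached 7117 ± 256 normalized counts per kilobase and passed SMURF2 at 4607 ± 96.4, with no overlap. In the S134A-GR line PMEPA1 reached 4011 ± 229 per kilobase and overlapped SMURF2 at 4112 ± 48.9. SKIL stood below BAMBI under Veh and above it under TGFβ1 in both lines. In the S134A-GR line under Veh, TGIF1 (1314 ± 55.6) stood after SMURF2 (2548 ± 78.8), and SKI (833 ± 12.2) had moved below SMURF1 (1018 ± 47.4) and PMEPA1 (882 ± 32.7), with overlap only between SKIL (191 ± 6.45) and SMAD6 (172 ± 12.9).

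The other genes of the pathway were read from lists, which were also chosen with earlier results of these data known. The first list holds the ligands, receptors and SMADs that the inhibitors act on. Of 10 such genes, 1 was higher and 3 were lower under TGFβ1 in the wt-GR line, and 2 and 2 in the S134A-GR line, against 11.2% and 9.82% of all genes in the wt-GR line and 10.0% and 8.69% in the S134A-GR line. TGFBR3, a coreceptor, fell from 2615 ± 215 to 1223 ± 14.6 normalized counts in the wt-GR line (log2 fold change −1.09, adjusted p = 1.1e-07 by limma) and from 1219 ± 45.0 to 731 ± 71.7 in the S134A-GR line (−0.74). TGFB3, a ligand, fell, at −0.59 in the wt-GR line (adjusted p = 0.00186) and had −0.32 in the S134A-GR line (adjusted p = 0.07), and TGFB1 itself rose by 0.94 and 0.46. SMAD3 fell, with log2 fold changes of −0.37 and −0.27 (adjusted p = 9.1e-06 and 2.2e-04). Between the lines under Veh, 6 of the 10 were lower and 1 higher in the S134A-GR line (26.5% and 25.0% of all genes tested), with TGFBR3 (−1.10), TGFB2 (−1.03) and SMAD3 (−0.45) among the lower and TGFB3 (0.44) the higher. The median of the list in that comparison was −0.25, and under TGFβ1, with 5 lower and 1 higher (25.7% and 23.1% of all genes), it was −0.15.

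The partners of the inhibitors were read in the same way. Of 13 ubiquitin ligases, deubiquitinases, phosphatases and adaptors that act on SMADs, receptors or corepressors, 2 were higher and 2 lower in the wt-GR line, with the same numbers in the S134A-GR line, and medians of 0.03 and 0.07. Of all genes tested, 11.2% were higher and 9.82% lower in the wt-GR line, and 10.0% and 8.69% in the S134A-GR line. The 4 called in the S134A-GR line became 8 by DESeq2, and 2 without Veh replicate 1 or 3 or TGFβ1 replicate 2 of that line. In the wt-GR line PPM1A, 1 of the 2 higher (0.10), lost its call with a replicate block (adjusted p = 0.0558 by limma). The call of PPM1A was also lost with only the wt-GR libraries fitted (0.1088). Leaving out any TGFβ1 replicate of that line lost it too (adjusted p up to 0.1635), as did some other libraries left out. NEDD4L, a ligase for activated SMAD2 and SMAD3, fell, with log2 fold changes of −0.47 in the wt-GR line and −0.39 in the S134A-GR line (adjusted p = 9.1e-06 and 5.8e-05 by limma), the opposite direction to the SMURF genes. STRAP, an adaptor that works with SMAD7, rose by 0.17 and 0.17 (adjusted p = 0.00141 and 0.00143). WWP2, another HECT ligase, fell, at −0.19 in the wt-GR line (adjusted p = 0.00116), and STUB1 was at 0.11 and not called (adjusted p = 0.159). Of the corepressor partners and related repressors, TGIF2, a relative of TGIF1, was lower, at −0.15 in the wt-GR line (adjusted p = 0.0353), and this call was lost without Veh replicate 1 or 3 or TGFβ1 replicate 1 or 2 of the wt-GR line, without Veh replicate 1 of the S134A-GR line, and when only the wt-GR libraries were fitted, with an adjusted p of 0.0981 (adjusted p over its alternatives 0.0197 to 0.151). NCOR1 (−0.12) and ZEB1 (0.12) were not called in the wt-GR line.

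Between the lines under Veh, 5 of the 9 corepressor partners were lower and 1 higher in the S134A-GR line, with a median of −0.17. ZEB2, a repressor that binds SMADs, was lower, at −1.18 (adjusted p = 2.0e-08 by limma), as was HDAC1, at −0.27, and CTBP1 was higher by 0.36. Of the 13 ligases, deubiquitinases, phosphatases and adaptors, 7 were lower and 3 higher (median −0.10), and without Veh replicate 1 of the S134A-GR line 6 of the 13 were called in place of 10. The deubiquitinase USP15, which acts with SMAD7 on the type I receptor, was lower, at −0.49 and USP4 at −0.34, while STUB1 was higher by 0.40 and USP11 by 0.31. Under TGFβ1, 4 of the 13 were lower and 4 higher (median −0.07), and 4 of the 9 were lower and 1 higher (median −0.09). Of all genes tested, 26.5% were lower and 25.0% higher in the S134A-GR line under Veh, and 25.7% and 23.1% under TGFβ1.

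Secreted antagonists of TGFβ family ligands form another feedback layer. Of 9 genes tested (GREM1 was not analysed here), 5 were higher under TGFβ1 in the wt-GR line, with a median of 0.85, and 3 were higher and 1 lower in the S134A-GR line, with a median of 0.27. All genes tested had 11.2% higher and 9.82% lower in the wt-GR line, and 10.0% and 8.69% in the S134A-GR line. FSTL3, which binds activins, rose from 2332 ± 167 to 7741 ± 136 normalized counts in the wt-GR line and from 2974 ± 128 to 9253 ± 411 in the S134A-GR line (log2 fold changes 1.73 and 1.64). FST (follistatin), its relative, had 489, 497 and 595 under Veh and 1099.8, 1148 and 1235 under TGFβ1 in the wt-GR line. FST in the S134A-GR line had 304, 279.8 and 322 under Veh and 340.5, 376 and 376 under TGFβ1. The treated libraries of FST lay above the untreated ones in both lines, with a wide gap in the wt-GR line, where it rose by 1.14 (adjusted p = 6.9e-07 by limma), against 0.27 (adjusted p = 0.0623) in the S134A-GR line, and the difference of responses was −0.87 (adjusted p = 0.0121). LEFTY2 was listed at 0 in all libraries under Veh and reached 119, 96.7 and 139.5 in the wt-GR line under TGFβ1, at least 99.0-fold higher with 3 reads over the group as the floor, and 1.90, 10.1 and 2.86 in the S134A-GR line. LEFTY1 and LEFTY2 are near-identical copies, so the split of reads between them is uncertain. In the difference of responses 3 of the 9 antagonists were called (FST, LEFTY1 and LEFTY2), against 0.414% of all genes, all 3 with the smaller response in the S134A-GR line. The call of LEFTY2 was lost by edgeR (adjusted p = 0.9999), by DESeq2 (0.302) and without TGFβ1 replicate 1 (0.06) or 3 (0.0591) of the wt-GR line.

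Of 11 tested genes that TGFβ1 commonly induces (CDKN2B was not analysed here, and CCN2 is listed under its older symbol CTGF), 11 were higher in the wt-GR line and 10 in the S134A-GR line, with medians of 1.23 and 0.98, where 11.2% and 10.0% of all genes were higher. The difference of responses was called for 3 of the 11 (0.414% of all genes), namely COL1A1, JUNB and SNAI1, with a smaller response in the S134A-GR line for all 3. JUNB had 2250.2, 2642 and 2883 normalized counts under Veh and 10726, 10519 and 9968 under TGFβ1 in the wt-GR line, and 2670.3, 2925 and 2683 and then 5643, 6233 and 5783 in the S134A-GR line, a difference of responses of −0.92 (adjusted p = 0.00164 by limma). Of the 11 genes of the BMP arm, 2 were higher and 1 lower in each line (of all genes 11.2% and 9.82% in wt-GR, 10.0% and 8.69% in S134A-GR), BMPR2 (0.46 in wt-GR and 0.66 in the S134A-GR line) and ACVR1 (0.29 and 0.22) being the higher and ID3 (−0.70 and −1.13) the lower. With 1 library left out, the response of BMPR2 in the wt-GR line lay between 0.31 and 0.62 and was called each time. ID4 was at −1.90 in the wt-GR line and not called (adjusted p = 0.0766).

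Between the lines under Veh, 2 of the 9 antagonists were higher and 3 lower in the S134A-GR line (median −0.04), and under TGFβ1 2 were higher and 4 lower (median −0.83). BGN (biglycan), which binds TGFβ in the matrix, had 17.9, 9.51 and 21.1 normalized counts in the wt-GR line under Veh and 1.89, 0.00 and 5.35 in the S134A-GR line, and was lower there (adjusted p = 0.00339 by limma). Levels of BGN this near to 3 reads in the S134A-GR line leave the size of the difference to the added count (−3.27 to −0.80 over the alternatives). FST was lower, at −0.80 (adjusted p = 6.6e-06), and NOG (noggin), which binds BMPs, was higher by 0.74 (adjusted p = 2.3e-05). LEFTY1 was lower, at −2.77 (−3.11 to −1.49 over the alternatives). Its mean under Veh was 46.5 normalized counts in the wt-GR line and 6.42 in the S134A-GR line. Of the 11 induced genes 4 were higher and 5 lower under Veh (median 0.05), and 3 higher and 7 lower under TGFβ1 (median −0.27). PTHLH was higher in the S134A-GR line under Veh by 2.34, COL1A1 by 0.99 and SPHK1 by 0.57, and IL11 was lower, at −0.77. Of the 11 genes of the BMP arm 3 were higher and 4 lower under Veh (median −0.12), and 2 higher and 4 lower under TGFβ1 (median −0.14). The shares of all genes beside these 3 lists were 25.0% higher and 26.5% lower under Veh, and 23.1% and 25.7% under TGFβ1. The receptor genes BMPR1B and BMPR2 were at 0.77 and −0.57 under Veh. ID2, a BMP target, was at −0.63, a call lost without Veh replicate 2 or 3 of the wt-GR line or Veh replicate 2 of the S134A-GR line (adjusted p up to 0.0864). ID4 was at −1.79, and was called in 7 of 20 alternatives, with values from −2.25 to −0.65. Its call was lost by edgeR (adjusted p = 0.0594) and DESeq2 (0.0605), and by limma with TMM scaling (0.0515). By limma it was lost too with a replicate block (0.0602) and with an added count of 0.5 (0.0759). The call of ID4 was also lost without Veh replicate 1 or 2 or any TGFβ1 replicate of the wt-GR line, and without Veh replicate 1 or 3 or TGFβ1 replicate 2 of the S134A-GR line (adjusted p up to 0.221).

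**Figure D5:**
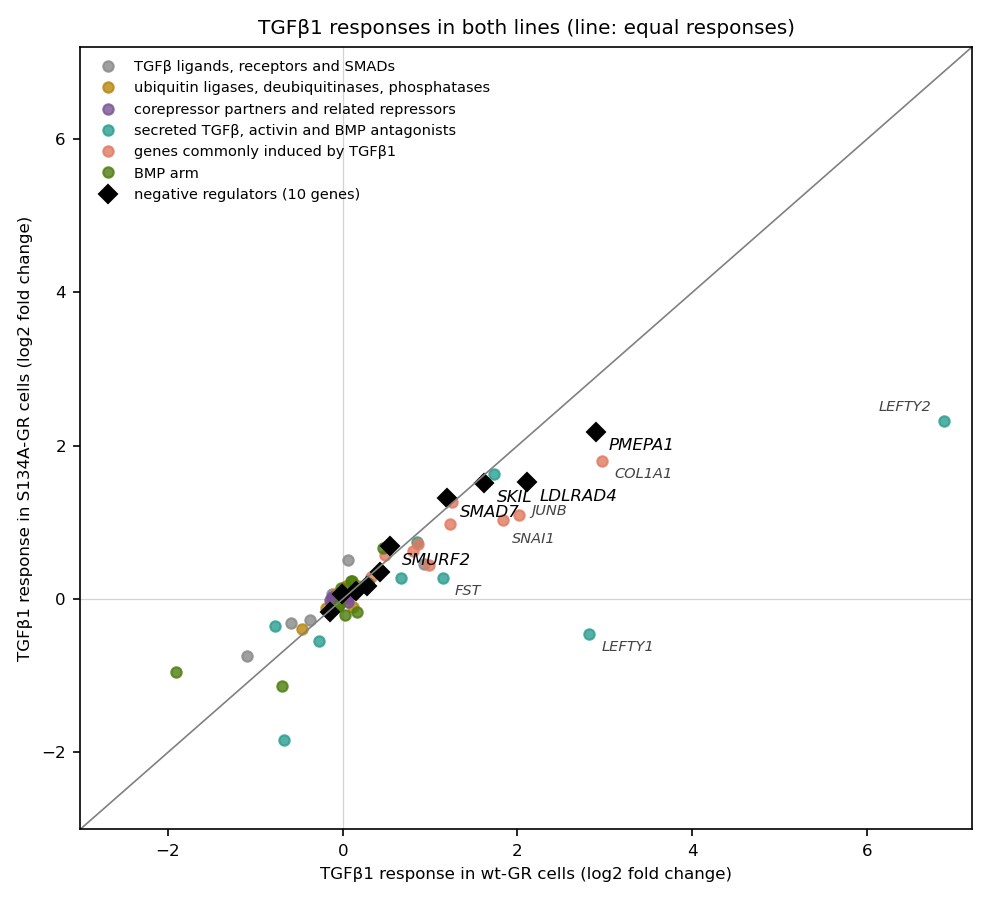
Log2 fold change under TGFβ1 in the wt-GR line (x axis) and the S134A-GR line (y axis) for the 10 negative regulators (black diamonds) and genes of 6 pathway lists (colored points), with the line of equal responses. SMAD7, SKIL and SMURF2 lie near the line and PMEPA1 below it with COL1A1, JUNB, SNAI1 and FST, and the position of LEFTY2, which was listed at 0 under Veh, is set by the added count of 1.

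The genes whose pattern over the 12 libraries was most like that of each feedback gene were found by Pearson's r of log2 of the normalized count plus 1, as a description over libraries that share the same 4 groups. Genes of like pattern to SMAD7 were AREL1 (0.994) and AMIGO2 (0.991), and NRP2 (0.996) and FHOD3 (0.995) were among those nearest to SKIL. For PMEPA1 the nearest were SH3KBP1 (0.997), TGFBI (0.994) and ADAM19 (0.993). SMURF1 was most like SHANK3 (0.976), COL5A1 (0.971) and SH3BP5L (0.971), and SMURF2 like CALD1 (0.993), PLXNA2 (0.993) and ZNF697 (0.988). LDLRAD4, which was high in the S134A-GR line and rose under TGFβ1, was most like HSF2BP (0.988), CGB7 (0.984) and FTSJ1 (0.983). Of the genes that followed the line, BAMBI was nearest to NINJ1 (0.994), TMEM9 (0.99) and TMEM129 (0.99), TGIF1 to TNFRSF19 (0.968), ATP6V0D1 (0.968) and TIGD7 (0.967) and SMAD6 to ATP6V1E1 (0.965), SLC35B1 (0.961) and TMEM183A (0.953). SKI, which was low in the S134A-GR line and rose under TGFβ1, was nearest to TENM2 (0.989), UNC5B (0.987) and ORC2 (0.986).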

How the data were processed

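RNA of a wt-GR clone and of S134A-GR clone #1 of MDA-MB-231, under vehicle or TGFβ1, was sequenced in 3 libraries for each of the 4 groups. The signal deposited for each gene symbol is a normalized count, which the authors made from 75-base paired-end reads by trimming with Trimmomatic, aligning with HISAT2 (hg38), counting by featureCounts and dividing by DESeq2 size factors. The annotation, the strand setting, whether a pair of reads counted once, and the versions of HISAT2 and featureCounts are not given in the sources used here.

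Whole reads were recovered from the values, which were whole multiples of a step within 0.001 reads, and summed per library to 56.4 to 129.8, in units of 1e6 reads (mean 93.5), so that 3 reads, the detection floor, are 2.15 to 4.89 normalized counts. This mean is far above the average depth stated in the sample labels, and the reason is not given in the sources used here, so the floor and the read-based tools rest on totals that do not match the labels. Of 19907 genes, 18579 had at least 10 reads over the 12 libraries together and were tested, all 10 feedback genes among them. Log2 of the normalized count plus 1 was fitted with limma 3.58.1 (empirical Bayes with a trend, 4 group means, R 4.3.3), p-values were adjusted by Benjamini-Hochberg over all genes tested, and intervals are at 95%. The comparisons were TGFβ1 against vehicle in each line, the difference of these responses, and S134A-GR against wt-GR under each treatment. The fit was tested on simulated data, where it missed some of the smallest differences within a line and most of the smallest differences of responses.

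The alternatives were no filter beyond 1 read, edgeR's filterByExpr, added counts of 0.5 and 16, TMM scaling, a replicate block, edgeR 4.0.16 (quasi-likelihood) and DESeq2 1.42.0 on the recovered reads, only the groups compared, and each library left out. The feedback genes and the pathway lists were chosen with earlier results of these data known. Named genes were the 10 feedback genes, the 4 genes of each pathway list with the largest absolute log2 difference in the wt-GR response and under vehicle, those called in the difference of responses, and for likeness the 3 genes of highest r with a mean of at least 100 normalized counts. The genes with overlapping exons and the chromosomal neighbours were chosen after values were seen, as were ID1 and the other genes named outside these rules. Some items that these rules name are not reported here. Lengths, positions and exon overlaps are from GENCODE (GRCh38), and promoter windows are from RefSeq (GRCh38.p14).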

Additional observations from a re-analysis of the deposited data

Results flagged for a closer look

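The response to TGFβ1 differed between the lines, by limma's test of the difference itself, for PMEPA1 and for 7 genes of the pathway lists. For PMEPA1 the difference, S134A-GR minus wt-GR, was −0.72 (log2, adjusted p = 9.1e-04), with no overlap between the treated groups. For COL1A1, which encodes a fibrillar collagen chain, the difference was −1.17 (adjusted p = 0.00265). FST, an activin antagonist, had a difference of −0.87 (adjusted p = 0.0121). JUNB, a subunit of AP-1, had −0.92 (adjusted p = 0.00164), and SNAI1, a repressor of CDH1, had −0.81 (adjusted p = 0.00717). LEFTY1, a secreted antagonist, had −3.27 (adjusted p = 0.00717), a size that depends on the added count and on few reads (−3.55 to −2.63 over the alternatives), since its levels in the S134A-GR line were 3.77, 10.1 and 5.35 normalized counts under Veh and 5.71, 4.05 and 2.86 under TGFβ1. In the wt-GR line the mean of LEFTY1 was 46.5 under Veh and 334 under TGFβ1. These 6 genes were called in each of the 20 alternatives run for the difference.

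LEFTY2 had a difference of −4.56 (adjusted p = 0.0126 by limma), whose size is set by the count of 1 added to values of 0, and which was not called by edgeR (adjusted p = 0.9999), by DESeq2 (0.302), or without TGFβ1 replicate 1 (0.06) or 3 (0.0591) of the wt-GR line. TGFB1 had a difference of −0.48 (adjusted p = 0.0126), not called without Veh replicate 2 (0.055) or TGFβ1 replicate 1 (0.0592) of the wt-GR line.

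ID1, a target of BMP signaling, separated by treatment in opposite directions in the lines. It had 3101, 3592 and 3814 normalized counts under Veh and 3935, 3899 and 3899 under TGFβ1 in the wt-GR line, and 4640.2, 4714 and 4607 and then 4136, 4337 and 3965 in the S134A-GR line. Treated libraries were all above untreated ones in the wt-GR line and all below them in the S134A-GR line. Its response was not called by limma in either line, and the difference of −0.33 did not pass the threshold (adjusted p = 0.18 by limma). ID1 was named after values were seen, and the share of all genes that separate this way was not counted.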

How the results depend on the processing

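The number of feedback genes called in each of the 5 comparisons stayed within 1.5 times the reported number under all alternatives. Of 50 values (10 genes in 5 comparisons), 28 were called, and of the 587 alternative values of these, 581 kept the sign and the call, 6 lost the call and 0 reversed. The 6 were SKI under TGFβ1 in S134A-GR cells and LDLRAD4 between the lines under TGFβ1, each with 1 library left out. Of 453 alternative values of the 22 that were not called, 7 became called (PMEPA1 between the lines under Veh, SKIL between them under TGFβ1) and 17 changed sign. With TMM scaling these were TGIF1 under TGFβ1 in wt-GR cells (0.00192) and SKIL between the lines under Veh (0.00665), and with edgeR TGIF1 in wt-GR cells (9.6e-04). Leaving out 1 library gave ranges across 0 of −0.0243 to 0.0251 for TGIF1 in wt-GR cells, −0.059 to 0.0503 for SKIL and −0.0133 to 0.0784 for SMURF1 between the lines under Veh, −0.0479 to 0.0509 for SMAD7 between them under TGFβ1, and, for the difference of responses, −0.115 to 0.0681 for SMAD6 and −0.126 to 0.0558 for BAMBI. The cause was not tested. For the list genes, 2973 values kept their call and 104 lost it.

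The number of genes called for the difference of responses over all genes, 77, was 211 by DESeq2 and 22 (without TGFβ1 replicate 1 of wt-GR cells) to 166 (without Veh replicate 3 of wt-GR cells) with 1 library left out. With a replicate block it was 58, and 7, 7, 1, 6 and 7 feedback genes in the 5 comparisons became 7, 7, 1, 7 and 7. Under the block PMEPA1 between the lines under Veh had an adjusted p of 0.0329 and ID4 of 0.0602. Libraries with the same number did not deviate together (mean r 8.9e-04, over 0.1 in 2 of 18 pairs). Depth limits the size of differences for genes near 3 reads, such as BGN and LEFTY1 in the S134A-GR line.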
